A study of Homo sapiens with 2 samples.

Results

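DDX18, a nucleolar helicase of the DEAD-box family, acts in ribosome production. Its contacts with the RNAs of 9 pluripotency genes were read from an iCLIP experiment, in which ultraviolet light links a protein to the RNA it touches before the protein is pulled down. The genes were POU5F1, SOX2, NANOG, SALL4, DPPA4, ZFP42, PRDM14, TDGF1 (now named CRIPTO) and TERF1, chosen by name, and a peak was counted for a gene when its entry carried that gene's Entrez number. A peak was called in 7 of the 9 genes, with 16 peaks among the 16095 distinct positions of the list. POU5F1 and SOX2 were the genes without a called peak.

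The cells were H9, an established human embryonic stem cell line, made to express DDX18 with a triple FLAG tag and kept in normal culture on inactivated mouse embryonic fibroblasts. Cross-linking used 160 mJ/cm2 at 254 nm, and anti-FLAG beads recovered the protein. The 1 group had 2 samples, and the deposited list gives 1 value per peak for both. No value below therefore has an error between samples, no groups were compared, and the reads behind a peak are unknown. The labels do not say whether the samples were separate cultures, whether the tagged protein came from the DDX18 locus or from a transgene, or how many clones were used. No input or untagged sample was used here, so a higher peak may mean more contact or more of that RNA, which cannot be told apart.

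A human embryonic stem cell holds its identity through a small circuit of transcription factors. POU5F1 (OCT4), SOX2 and NANOG bind each other's genes and a shared set of targets, and SALL4 and PRDM14 act beside them. ZFP42 (REX1) and DPPA4 are standard markers of the pluripotent state, CRIPTO is a membrane-anchored co-receptor for the ligand Nodal, and TERF1 is the shelterin protein that coats telomeric DNA.

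Peaks in the 7 genes were mostly above the median height of the list but far below its highest. The 16 peaks had a median height of 11.5 and ran from 5 to 18, against a median of 8 and a range of 3 to 76702 over all positions. Of the 16, 12 stood above that overall median. Height is a whole number in every entry, with no scaling recorded in the file. Each entry also carries a value tagged PH0 and a deposited p of at most 0.05. PH0 is read here as the height expected in the gene, since it was the same for all peaks of a gene in every one of the 6695 called genes. Its median was 0.36 in the 7 genes, against 0.05 in protein-coding genes with a peak. No peak below 9 was listed for genes with the PH0 of SALL4 or ZFP42, below 11 for that of CRIPTO, or below 12 for that of DPPA4. The limit of the list thus kept the peaks of these genes above 8, so their standing above the median says nothing about contact. Against the 9 genes, 31.0% of the 20056 protein-coding genes had a called peak. The genes were picked with earlier results of these data known, so their count was given no test.

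Among the core factors, NANOG had the lowest peak of the 7 genes. NANOG, a homeodomain factor, had 1 peak, 5 high, within coding exon 2 of 4, at chr12:7945648-7945657 on the plus strand of hg19, the build of all positions given here. Its expected height was 0.05 and its deposited p 0.0478, close to the limit of the list. A strongest peak at least that high was found in 93.2% of the 6218 protein-coding genes with a peak. At the same expected height of 0.05, the list held 382 genes, and no peak of theirs was below 5. The NANOG peak thus stood at the lowest height listed for genes of its expected height.

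SOX2, an HMG-box factor made from an intronless gene, had no called peak, but the SOX2 transcript carried 10 peaks that were called in SOX2-OT. SOX2-OT is the long non-coding RNA gene in whose span SOX2 lies, and both are read from the plus strand. All 10 SOX2-OT peaks were annotated to the SOX2 transcript, all 10 were nearest to the SOX2 start site, and 0 lay elsewhere in SOX2-OT. The gene table gives a span of 2512 bases for SOX2 and 685549 for SOX2-OT, and the peaks lay within 2396 bases, from 102 to 2494 nt after the SOX2 start.

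The highest of the 10 peaks had a height of 12 and lay in the 5' UTR, at chr3:181429813-181429816. The 4 in the coding sequence had heights of 9, 10, 6 and 7 in transcript order. The 4 in the 3' UTR, at 1470, 1731, 1969 and 2377 nt from the start, each had a height of 6, and the last peak, labelled as a transcript end, had 7. The peaks thus covered the whole SOX2 transcript, the 5' UTR peak being the highest and the 3' UTR peaks level with each other. Gaps between neighbouring peaks ran from 98 to 475 nt with a median of 242.

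With these peaks credited to SOX2, it would have had more peaks than any of the 7 genes with a called peak. As many as 10 peaks were called in 228 protein-coding genes, or 3.67% of those with a peak. Its 10 peaks came to 3.98 per kb of gene span, and 7 protein-coding genes with a peak (0.113%) reached that density, although SOX2 has no introns and most spans include them. Its highest peak was common in size, since 20.7% of the genes with a peak had a strongest peak of at least 12. The expected height printed with all 10 peaks was 0.03, that of SOX2-OT as a whole, and none was given for SOX2 itself. For genes with the expected height of CRIPTO, 0.76, no peak below 11 was listed. How many of the 10 peaks would be listed under SOX2 is thus unknown. Its count and density are not on an equal footing with those of the other genes.

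Peaks in the exons of a protein-coding gene that had no called peak of its own occurred in 49 genes, or 0.244% of all protein-coding genes. SOX2 had the most of the 49, with 9 exonic peaks, followed by OAZ1 with 5, called in SPPL2B, and WDR11 with 4, called in MIR5694. In 38 of the 49 it was 1 peak. When each peak was given to the gene of its annotated transcript, 8 of the 9 genes had a peak and 26 peaks were counted in them, against 30.1% of protein-coding genes with a peak. The 16 called peaks of the other 7 genes did not change in this count. Which of the 2 overlapping RNAs was bound was not tested.

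**Figure D1:**
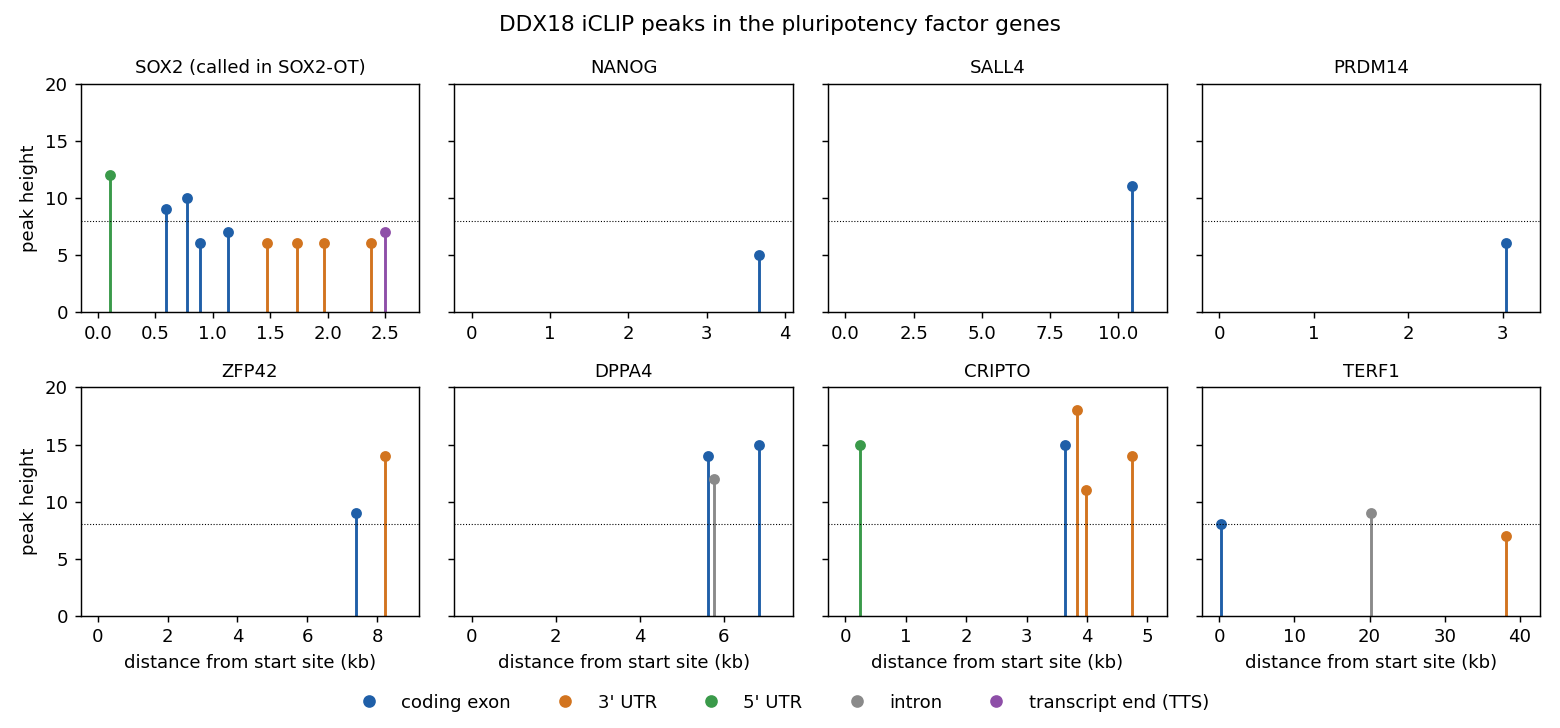
Height of each peak (vertical axis) by its distance from the nearest annotated start site in kb (horizontal axis, a separate scale for each gene), coloured by transcript region. The dotted line is the median height of all positions, 8. SOX2 carries 10 peaks from its 5' UTR to its transcript end that were called in SOX2-OT, and CRIPTO has the highest peak, 18.

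POU5F1, the POU-domain factor at the centre of the circuit, had 0 entries by any assignment: none called in it, none annotated to its transcript and none nearest to its start site. The same held for its surroundings. None of the 10 protein-coding genes on either side of it had a called peak. In the order of the RefSeq gene table, POU5F1 lay within a run of 175 neighbouring protein-coding genes without a called peak, from ZSCAN12 to BAK1 on chromosome 6, with 70 of them before it and 104 after it. The next longest runs in the genome had 64 genes, and the median of the 3937 runs was 2. In the positions of the list, nothing was recorded between a peak of height 6 in ZKSCAN3 that ended at position 28333437 of chromosome 6 and a peak of height 7 in ITPR3 at position 33659646, a gap of 5326208 bases. No position of the list was annotated or nearest to any of the 175 genes.

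This stretch holds the major histocompatibility complex. Beside POU5F1 and the HLA genes it includes RPS18, which encodes a ribosomal protein, TUBB, a tubulin, BRD2, a bromodomain protein, and DDX39B, an RNA helicase. These examples were chosen after the gap was seen. Of the 874 protein-coding genes on chromosome 6 outside the run, 294 (33.6%) had a called peak. The list held 0 positions on alternative haplotype or unplaced sequences. The missing peak of POU5F1 was thus shared with every protein-coding gene around it, so the list gives no reading of POU5F1 itself. The cause of the gap was not tested.

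**Figure D2:**
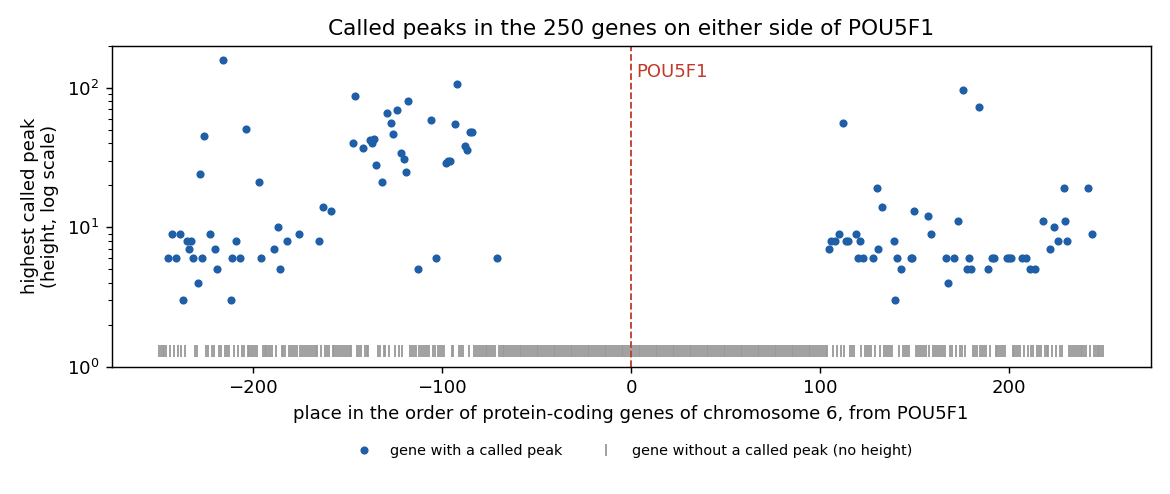
Highest called peak (log scale) of protein-coding genes on chromosome 6, placed by their order from POU5F1, with 250 genes shown on each side. Grey ticks at the bottom mark genes without a called peak and carry no height. The run of 175 genes without a peak, from 70 genes before POU5F1 to 104 after it, stands between stretches where genes with and without a peak are mixed.

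Of 42 copies of the 9 genes elsewhere in the genome, found by name, 3 had a called peak. These were 1 of 39 pseudogenes, against 0.456% of the 16882 pseudogenes in the gene table, and 2 of 3 copies listed as protein-coding. POU5F1P3, a transcribed copy of POU5F1, had a peak of height 12 at chr12:8287041-8287045 on the minus strand, with an expected height of 0.59. POU5F1B, another copy, had a peak of height 7 on chromosome 8 at its transcript end. CRIPTO3, a copy of CRIPTO on the X chromosome, had a peak of height 10 at chrX:109764809-109764820. None of the 11 NANOG copies, 7 SALL4 copies, 7 TERF1 copies or 3 DPPA4 copies had a peak. Such copies resemble their source genes closely, and how reads that match several places were handled is not given in the sources used here, so the RNA behind these 3 peaks is uncertain.

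SALL4 and PRDM14, zinc-finger factors that act beside POU5F1, SOX2 and NANOG, had 1 peak each, both in coding sequence. The SALL4 peak lay within coding exon 2 of 4 and was 11 high, at chr20:50408518-50408521 on the minus strand, with an expected height of 0.37 and a deposited p of 2.81e-05. The PRDM14 peak lay within coding exon 4 of 8 and was 6 high, at chr8:70980517-70980533 on the minus strand, with an expected height of 0.08 and a deposited p of 0.0236. A strongest peak as high as that of SALL4 was found in 24.2% of the genes with a peak, and as high as that of PRDM14 in 82.7%. By height, SALL4 thus stood in the upper part of the distribution and PRDM14, like NANOG, near its floor. The limit of the list sets part of this contrast. No peak below 9 was listed for genes with the expected height of SALL4, and none below 6 for genes with that of PRDM14.

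ZFP42 and DPPA4, the marker genes, had several peaks. ZFP42, a zinc-finger protein, had a peak of height 9 at chr4:188924316-188924320 in the coding part of its last exon, exon 4 of 4. A second ZFP42 peak of height 14, at chr4:188925138-188925151 in the 3' UTR of the same exon, lay 817 nt further along and had the lower deposited p, 1.69e-12 against 0.00728. Both ZFP42 peaks thus fell in the exon that ends the transcript.

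DPPA4, a chromatin protein with a SAP domain, had 3 peaks of heights 14, 12 and 15 in transcript order. They lay in coding exon 3 of 7 (chr3:109050780-109050781), in the intron that follows it (chr3:109050641-109050651) and in coding exon 5 (chr3:109049580-109049596), all on the minus strand. The exon 3 and intron peaks were 128 nt apart, and their deposited p-values were 1.22e-04 and 0.0212. DPPA4 had the highest expected height of the 7 genes, 0.94, which 3.54% of the genes with a peak reached. DPPA4 and TERF1 were the only ones of the 7 genes with an intronic peak.

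CRIPTO had the most called peaks of the 7 genes and the highest of them, though not the highest relative to expected height. It is an EGF-CFC protein held at the cell surface, where it allows Nodal to signal through activin receptors. Its 5 peaks had heights of 15, 15, 18, 11 and 14 in transcript order, and a summed height of 73. The first lay in the 5' UTR, 240 nt from the start site (chr3:46619313-46619320). The other 4 lay in the last exon, exon 6 of 6. One of these was in the coding part (chr3:46622701-46622712), and those in the 3' UTR were at chr3:46622904-46622905, chr3:46623060-46623070 and chr3:46623823-46623831.

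The CRIPTO 3' UTR peak of height 18 carried a deposited p of 1e-100, the lower limit of the list, which 15.7% of all entries shared. The coding peak and the first 2 of the 3' UTR peaks followed each other at gaps of 191 and 154 nt. The last stood 752 nt further on. Peaks of CRIPTO thus lay mostly in its last exon, with none called in exons 2 to 5. Exon lengths were not taken into account, so a preference for the 3' end cannot be read from this. As many as 5 peaks were called in 11.8% of the genes with a peak, and a strongest peak of at least 18 in 11.4%. Per kb of gene span CRIPTO had 0.631 peaks and a summed height of 9.21, against medians of 0.0341 and 0.244 over protein-coding genes with a peak, and 2.24% and 3.96% of those genes were as high.

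TERF1, which belongs to the telomere-capping shelterin complex and not to the transcription circuit, had 3 low peaks far apart. One, 8 high, lay within coding exon 1 of 10, 302 nt from the start site (chr8:73921396-73921403). One of height 9 lay in intron 6 of 8 (chr8:73941246-73941262), and one of height 7 in the 3' UTR (chr8:73959245-73959262), all on the plus strand. The gaps between them were 19842 and 17982 nt. The peaks thus spanned the gene from its first exon to its last, and their heights differed by at most 2. A strongest peak as high as that of TERF1 was found in 36.5% of the genes with a peak.

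The lowest peak listed in a gene moved with its expected height, and this bears on how the genes can be read against each other. Across all called genes, the median of the lowest listed height was 5 where the expected height was at most 0.01. It was 6 for expected heights above 0.01 and up to 0.03, 6 up to 0.1, 8 up to 0.3, 11 up to 1 and 17 up to 3. The 7 genes followed the same order. PRDM14 with an expected height of 0.08 had a lowest peak of 6, TERF1 with 0.14 had 7, ZFP42 with 0.36 had 9, CRIPTO with 0.76 had 11 and DPPA4 with 0.94 had 12. In SALL4, with 0.37, the only peak stood at 11, and genes of that expected height reached down to 9. Peaks of the heights seen in NANOG or PRDM14 were thus not listed in any called gene with an expected height as high as that of CRIPTO or DPPA4, and their absence there says nothing about contact. Divided by the expected height, which the file gives to 2 decimals, the strongest peaks came in nearly the reverse order. The ratio was 100 in NANOG, 75 in PRDM14, 64.3 in TERF1, 38.9 in ZFP42, 29.7 in SALL4, 23.7 in CRIPTO and 16.0 in DPPA4. CRIPTO thus led by height and number of peaks. NANOG led by this ratio, but the limit of the list sets part of that order. No peak below 5 was listed at the expected height of NANOG, 0.05, and none below 11 at that of CRIPTO. The ratio thus does not rank the genes by contact. Of the 10 SOX2 peaks, 9 were lower than the lowest peak of DPPA4, but this too follows from the limits of the list. The SOX2 peaks were listed under the expected height of SOX2-OT, 0.03, where peaks reached down to 5. At the expected height of DPPA4 no peak below 12 was listed.

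**Figure D3:**
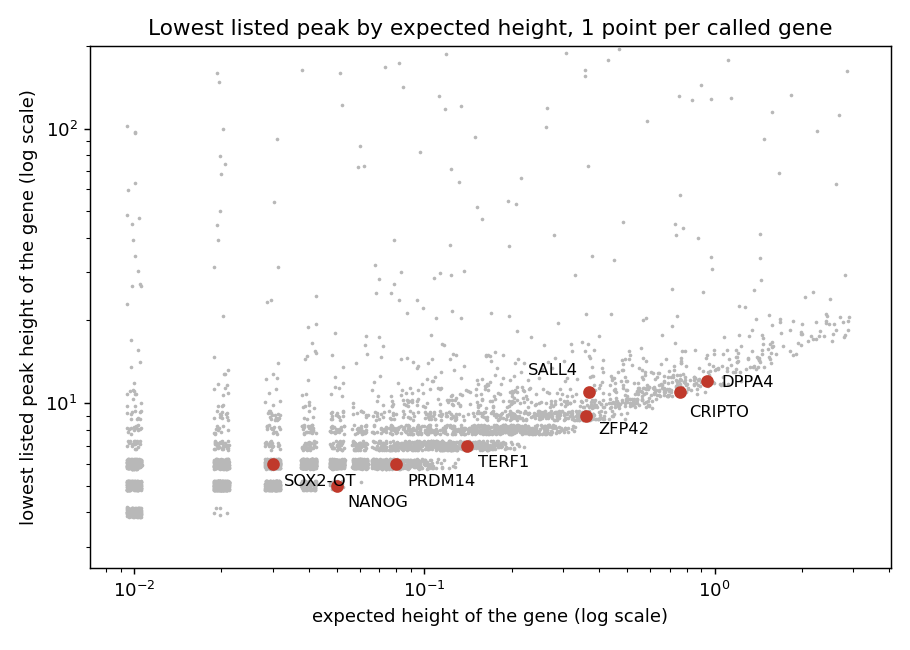
Lowest listed peak height of each called gene (vertical axis, log scale) by the expected height deposited for that gene (horizontal axis, log scale), with points shifted slightly to separate them. The genes named here and SOX2-OT are in red. Genes with an expected height of 0 or above 3, or a lowest peak above the axis, are not drawn. The lower edge of the cloud rises to the right, passing NANOG (5) and then DPPA4 (12).

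By region, most peaks of the 7 genes fell in coding exons and 3' UTRs. Coding exons held 8 of the 16 (50%), against 47.8% of the 15599 positions called in protein-coding genes. The 3' UTRs held 5, from CRIPTO, ZFP42 and TERF1 (31.2% against 18.7%), introns 2 (12.5% against 18.0%), and the 5' UTR 1, that of CRIPTO (6.25% against 2.31%). With so few peaks from 7 genes, these shares are a description. Of the 14 exonic peaks, 7 lay in the last exon of the annotated transcript (50%), against 34.4% of 10745 exonic positions, and 4 of those 7 were from CRIPTO. The lengths of these exons were not taken into account. None of the 16 positions was also called in another gene. The peaks were 2 to 18 nt wide, with a median of 10.5 against 13 in the list.

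Genes that work with the 9 were read from lists. Among 22 other pluripotency genes, 9 had a called peak (40.9%), against 31.0% of all protein-coding genes. The highest were in TRIM28, a co-repressor (39, labelled as the start of a microRNA gene), LIN28A, an RNA-binding protein (36), L1TD1, an RNA-binding protein derived from a transposon (28), and ZIC2, a zinc-finger factor (25). KLF4, FOXD3 and DPPA2, a partner of DPPA4, were among the 13 without a peak.

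In the Nodal and activin pathway, to which CRIPTO belongs, 7 of 18 genes had a peak (38.9%), against 31.0% of all protein-coding genes. They included SMAD4, the common mediator (15, in its 3' UTR), PCSK6 and FURIN, proteases that process the ligands (12 and 9), ACVR1B, a receptor (10), and GDF1, a ligand (9). The ligand gene NODAL, the receptor genes ACVR2A and ACVR2B, SMAD2 and CFC1, the relative of CRIPTO, had none. CRIPTO, at 18, had a higher peak than any of the 7, but not relative to expected height, which was 0.76 for CRIPTO, 0.04 for SMAD4 and 0.01 for PCSK6.

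Of 15 genes for shelterin and telomerase, 8 had a peak (53.3%). The share over all protein-coding genes was 31.0%, but this list includes TERC, an RNA gene that is not among them. The highest peak was in DKC1, the pseudouridine synthase of telomerase (53, annotated to the end of the small RNA gene SNORA56). Next came TERC, the RNA template (19), TERT, the catalytic subunit (11), and NHP2 (11). TERF1 was the only gene of the shelterin complex with a called peak, as TERF2, TERF2IP, TINF2, POT1 and ACD had none. That contrast was picked after the values were seen.

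The NuRD chromatin complex, which SALL4 recruits, had a peak in 11 of 13 genes (84.6%), against 31.0% of all protein-coding genes, with none in MTA2 and GATAD2B. The count was 7 with exonic peaks only and 6 when the nearest start site set the gene. The shares of all protein-coding genes were then 21.87% and 29.25%. The highest were in the helicase CHD4 (47, annotated to the small RNA gene SCARNA11), in HDAC2 (21) and, at 14, in CHD3 (annotated to SCARNA21), RBBP4 (annotated to SYNC) and RBBP7. Close relatives of the 9 genes had a peak in 8 of 29 (27.6%), against 31.0% of all protein-coding genes. The highest were in POU3F1 (15), SALL2 (13), SALL1 (10) and SALL3 (10, in an intron). With SALL4, all 4 SALL genes had a called peak. None of the SOX relatives SOX1, SOX3, SOX14 and SOX21 had one, and neither did SOX2, whose peaks were called in SOX2-OT. Both families were picked after the values were seen.

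Genes listed as markers of other cells had peaks too, at shares near or below that of all protein-coding genes, 31.0%. A peak was listed in 3 of 12 neuroectoderm markers (25%), NES, TUBB3 and OTX2, and 2 of 12 mesoderm markers (16.7%), KDR and PDGFRA. It was listed in 1 of 12 endoderm markers (8.33%), SOX7, and 4 of 12 fibroblast markers (33.3%), COL1A1, COL1A2, COL6A1 and THY1. The highest peak in the fibroblast list was that of THY1, at 39, above every peak of the 9 genes. The expected height of THY1, 2.79, was also above that of DPPA4 (0.94), the highest given for any of the 9. The highest of the 3 PDGFRA peaks was annotated to an intron of GSX2, and the 1 SOX7 peak, 13 high, was labelled intergenic. Reads of the mouse feeder fibroblasts were not separated here, and their part in the peaks of these markers was not tested. Whether the H9 cells themselves make the RNAs of the listed genes, THY1 among them, was not tested either.

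**Figure D4:**
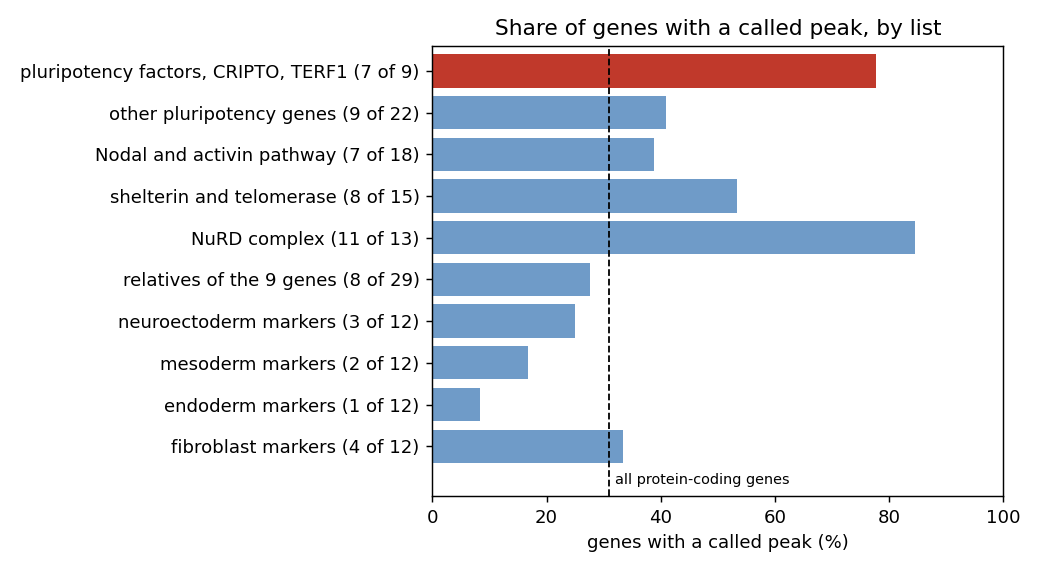
Share of the genes in each list with at least 1 called peak (horizontal axis, in percent, with counts beside each name). The dashed line is the share over all protein-coding genes, 31.0%, which would be 21.87% with exonic peaks only and 29.25% by nearest start site. The 9 genes (7 with a peak, red) and the NuRD genes (11 of 13, but 7 with exonic peaks only and 6 by nearest start site) stand farthest to the right, and the endoderm markers (1 of 12) farthest to the left.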

How the data were processed

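The data were 1 deposited list of significant DDX18 iCLIP peaks for 2 samples. Per the file headers it was annotated on hg19 with annotatePeaks.pl of HOMER. BWA, FastQC 0.10.1 and the same build stand in the submitters' processing notes. Not given in the sources used here: the peak caller and the handling of duplicate or repeated reads. Peak height, the deposited signal, is a whole number with no stated scaling, and it equalled the height in the peak's name in every entry.

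Positions listed under several genes (1068 repeats among 17163 entries) counted once per gene. Names, spans and gene order came from the RefSeq table of GRCh38.p14, with no positions taken from it, and a few genes of its alternative scaffolds may be misplaced in that order. Per the labels, no sample has a value of its own. The sign of the deposited distance was turned for minus-strand peaks, after which 2254 of 2261 promoters with several peaks gave 1 start site within 20 nt (1080 before). Parsing and counting were tested on a made table (Python 3.11.15, pandas 2.3.3). No test was run. The 9 genes, the lists and the naming rule (every listed gene with a peak, or the 4 highest where over 6 had one) were chosen with earlier results of these data known. Bases under the peaks are not printed, since no hg19 genome was used here.
The peak of 1 listed gene of the Nodal list is not reported here.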

Additional observations from a re-analysis of the deposited data

How the results depend on the processing

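The list has no value per sample, so leaving out a replicate could not be run, and height without abundance limits every comparison between genes. Leaving out positions called in several genes moved none of 10 summaries past the limit used here, 1.5 times for counts. With heights of 10 or more, 4 of the 9 genes had a peak (10 peaks, median strongest peak 14.5), against 8.78% of protein-coding genes, and the counts were 3 for the Nodal, 6 for the NuRD, 4 for the relatives and 4 for the telomere list. NANOG, PRDM14 and TERF1 lost their peaks there. With a deposited p up to the median, 8 peaks were left in 5 genes (median strongest peak 14), against 17.25% of protein-coding genes, with 4 Nodal and 5 telomere genes. With exonic peaks only, the Nodal, NuRD and relatives lists had 4, 7 and 5, against 21.87% of protein-coding genes. When the nearest start site set the gene, 31 peaks fell to the 9 genes (median strongest peak 12), because SOX2 gained 10, PRDM14 3 in NCOA2 and NANOG 2 in SLC2A14. There 6 NuRD genes had a peak, against 29.25% of protein-coding genes. When the annotated transcript set the gene, a choice added after the data were seen, 26 peaks fell to the 9 genes (median strongest peak 11.5). POU5F1 had no peak under any of these settings.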
